A study of Mus musculus with 35 samples.

Results

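Skeletal muscle breaks down glucose and glycogen for energy, and 37 genes of that route were followed here in quadriceps muscle that lacked myostatin or had been exposed to a decoy receptor for it. The genes are the enzymes and regulators of glycolysis, the cytosolic and mitochondrial glycerol phosphate dehydrogenases, the enzymes and scaffolds of glycogen, and the carriers of glucose and lactate with the proteins that control glucose carrier traffic. A gene was taken from the array table where a row was annotated with its symbol and no other, and where several rows qualified the row with the highest mean over the 35 arrays was used. By this rule 34 of the 37 genes were measured, of 19938 genes in all. Gpi1 and Pfkfb1 had no such row, and Gapdh appeared only in 25 rows shared with other symbols, so these 3 are not analysed here. The measured genes comprise 11 glycolytic enzymes, 4 glycolysis regulators, 2 shuttle enzymes, 11 glycogen genes and 6 transport genes.

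All mice were females aged 2 months. The classes were controls, Mstn-null mice, which lack myostatin, a secreted inhibitor of muscle growth, and mice given ActRIIB-Fc in 1 dose or in 4 doses. This agent is the soluble part of the activin type IIB receptor fused to an antibody Fc part, and it captures myostatin and related ligands such as activins. The sources used here give no strain, no genotype of the dosed mice, no amount or timing of a dose and no sham injection of the controls. Experiment 1 had 3 arrays per class, and the independent experiment 2 had 5 per class but 8 for Mstn-null mice. Each array is 1 biological replicate of whole quadriceps muscle.

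Glycolysis turns glucose into pyruvate and then lactate, and fast-twitch fibres rely on it more than slow-twitch fibres, which oxidise fuel in mitochondria. Muscle takes up glucose mainly through the carrier GLUT4, which insulin and contraction move to the cell surface, and it stores glucose as glycogen, which phosphorylase releases during work. Lactate dehydrogenase exists as an A subunit, typical of fast muscle, and a B subunit, typical of slow muscle and heart, and lactate leaves and enters fibres through monocarboxylate carriers.

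Values are log2 expression levels, and a change is a difference of log2 levels between classes with experiment as a term, so a change of 1 is a doubling. Adjusted p-values are from limma with Benjamini-Hochberg adjustment over all 19938 genes, and a gene is said to rise, fall or be called where this value was under 0.05. Array medians over genes were 4.73 to 4.86 in experiment 1 and 6.34 to 6.54 in experiment 2, so levels are compared only within an experiment, and no gene's level is set against that of another. The Mstn transcript was at 5.78 to 6.69 on Mstn-null arrays against 6.77 to 7.68 on control arrays in experiment 1, and at 6.29 to 7.84 against 9.84 to 10.21 in experiment 2, so every Mstn-null array matched its label against the controls. This is no check of the dosed arrays. The interquartile range of an array's values was lower in the Mstn-null class than in controls by 0.24 on average (exact permutation p = 7.77e-05, two-sided, within experiments). For 1 dose the difference was -0.07 (exact permutation p = 0.155) and for 4 doses -0.10 (exact permutation p = 0.309). The range was under 2.3 on 6 arrays, namely 4 Mstn-null arrays of experiment 2 and 1 array of 4 doses in each experiment, and results that rest on them are also given without these 6. Controls and 1-dose mice have equal numbers of arrays within each experiment, and none of the 6 is theirs. Leaving the 6 out therefore cannot move a change of 1 dose against control, only its estimated spread and adjusted p. Because whole muscle was measured, fewer cells of a type and less RNA per cell cannot be told apart.

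The defining genes of skeletal muscle were present in all classes, with a mean over 9 muscle identity genes of 12.18 to 12.66 across the arrays of experiment 2 and 10.48 to 10.72 in experiment 1. Of these 9, 4 rose in Mstn-null muscle, by at most 0.42 (Myod1), and myoglobin (Mb), which oxidative fibres hold most of, fell by 1.66 there and by 0.94 after 4 doses. The counts called in this paragraph stand beside shares over all genes of 25.4% higher and 16.4% lower in Mstn-null muscle. After 1 dose these shares were 0.542% and 0.572%, and after 4 doses 1.91% and 1.23%. Slow fibre genes moved with the classes. Of 13 measured, 13 fell in Mstn-null muscle (median change -2.02), 0 after 1 dose (median -0.76) and 9 after 4 doses (median -1.43). The mean over the 14 fast fibre genes in experiment 2 was 13.23 to 13.35 in controls, 12.87 to 13.35 in Mstn-null muscle, 13.30 to 13.38 after 1 dose and 13.36 to 13.40 after 4 doses, the last all above controls. In experiment 1 it was 11.20 to 11.29 in Mstn-null muscle, all below the controls at 11.34 to 11.37. In Mstn-null muscle Myh2 (-1.30), Myh1 (-0.42) and Tnnc2 (-0.34) fell and Actn3 (0.15) rose among them, and after 4 doses 3 rose, led by Myl1 (0.34). Of 12 macrophage markers 5 rose in Mstn-null muscle and 7 after 4 doses, led by Laptm5 in both (0.66 and 0.67), and of 10 endothelial markers 5 fell in Mstn-null muscle, led by Egfl7 (-0.68), with 0 called after either dosing. In experiment 2 the mean over the macrophage markers was 6.48 to 6.82 in controls, 6.76 to 7.49 in Mstn-null muscle, 6.70 to 7.44 after 1 dose and 7.27 to 7.52 after 4 doses. That of the endothelial markers was 7.97 to 8.06, 7.32 to 8.13, 7.76 to 8.03 and 7.84 to 8.20 in the same order. Of 7 fibroblast markers Col3a1 rose after 4 doses (0.74), where the list mean of experiment 2 was 10.03 to 10.33 against 9.29 to 9.84 in controls, and Dpt fell in Mstn-null muscle (-0.40). Of 3 erythroid markers 2 rose in Mstn-null muscle, Epb42 (0.27) and Slc4a1 (0.22), and of 5 nerve and Schwann markers 2 rose there, Sox10 (0.23) and Mag (0.19). Of 8 adipocyte markers Fabp4 fell in Mstn-null muscle (-1.51), and the list's median change after 4 doses was -0.44 with 0 called. The part of any of these cell types in the results on single genes was not tested.

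The promoters of 6 genes are shown because these genes carried most of the differences reported below: Ldhb, Pgk1, Ugp2 and Gbe1 were lower and Pfkfb3 was higher in Mstn-null muscle, and Tbc1d1 was lower after ActRIIB-Fc. Each sequence is the 250 bases before a transcription start in RefSeq on the assembly GRCm38.p6, printed 5′ to 3′ on the gene's own strand. Ugp2, Pfkfb3 and Tbc1d1 each had 2 such windows, of which only the one listed first was searched and is shown. Capitals mark matches, on either strand, to the MEF2 motif of muscle genes (CTA, then any 4 bases, then TAG), ACGTG (the core of the hypoxia response element), CCAAT (the CCAAT box) and GGGCGG (the GC box). Ldhb lies at chr6:142507958-142508207 on the minus strand, and its window holds 2 MEF2 letter matches and a CCAAT box.
Ldhb: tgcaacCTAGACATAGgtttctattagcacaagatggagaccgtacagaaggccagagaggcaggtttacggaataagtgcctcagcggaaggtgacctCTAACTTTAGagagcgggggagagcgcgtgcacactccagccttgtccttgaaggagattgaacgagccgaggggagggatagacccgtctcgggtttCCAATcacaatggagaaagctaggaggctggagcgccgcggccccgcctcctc
Pgk1 lies at chrX:106186850-106187099 on the plus strand and holds 2 hypoxia response element cores, a CCAAT box and a GC box.
Pgk1: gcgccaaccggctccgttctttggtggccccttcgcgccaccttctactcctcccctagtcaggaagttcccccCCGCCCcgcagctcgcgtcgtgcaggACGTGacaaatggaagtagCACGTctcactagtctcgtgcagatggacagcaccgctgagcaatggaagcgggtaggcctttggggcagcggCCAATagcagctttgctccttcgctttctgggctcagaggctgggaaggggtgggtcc
Ugp2 lies at chr11:21371268-21371517 on the minus strand and holds a core, a CCAAT box and a GC box.
Ugp2: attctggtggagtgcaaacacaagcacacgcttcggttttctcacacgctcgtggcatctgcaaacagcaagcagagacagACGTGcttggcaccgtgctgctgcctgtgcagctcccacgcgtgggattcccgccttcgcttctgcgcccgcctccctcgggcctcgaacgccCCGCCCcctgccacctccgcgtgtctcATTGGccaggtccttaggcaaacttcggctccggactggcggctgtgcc
Gbe1 lies at chr16:70313699-70313948 on the plus strand, and none of the searched letters occur in its window.
Gbe1: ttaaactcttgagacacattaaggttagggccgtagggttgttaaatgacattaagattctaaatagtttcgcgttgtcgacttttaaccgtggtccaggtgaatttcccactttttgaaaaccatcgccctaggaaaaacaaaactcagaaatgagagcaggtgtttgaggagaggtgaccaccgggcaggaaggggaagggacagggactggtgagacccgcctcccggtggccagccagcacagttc
Pfkfb3 lies at chr2:11553930-11554179 on the minus strand and holds a core and 2 GC boxes.
Pfkfb3: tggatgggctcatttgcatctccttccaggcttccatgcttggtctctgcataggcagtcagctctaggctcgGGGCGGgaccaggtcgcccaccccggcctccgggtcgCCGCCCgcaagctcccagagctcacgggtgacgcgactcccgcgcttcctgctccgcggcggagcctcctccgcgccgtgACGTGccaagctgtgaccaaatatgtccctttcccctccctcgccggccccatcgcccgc
Tbc1d1 lies at chr5:64160010-64160259 on the plus strand, and none of the searched letters occur in the window shown.
Tbc1d1: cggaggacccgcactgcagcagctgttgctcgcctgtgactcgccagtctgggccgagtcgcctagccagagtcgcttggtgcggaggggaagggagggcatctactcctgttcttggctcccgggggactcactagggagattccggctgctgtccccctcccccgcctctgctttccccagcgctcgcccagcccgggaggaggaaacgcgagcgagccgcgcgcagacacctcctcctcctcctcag
A match is a description of the letters only, and a window without a match says nothing about a factor's action on the gene.

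Over all 35 genes of the set that had a promoter window, including the 3 without array values but not Slc2a4 and Gpd1, the windows were rich in G and C, with a median GC content of 58.4% against 52.0% over the windows of 27025 genes. The core ACGTG occurred in 13 of 35 windows (37.1%) against 16.6% of all windows, and the longer E-box CACGTG, every copy of which holds ACGTG, in 6 (17.1%) against 6.05%. The GC box occurred in 19 (54.3%) against 32.9%, the CCAAT box in 13 (37.1%) against 34.5%, the MEF2 letters in 3 (8.57%) against 3.23%, and the TATA box TATAAA in 1 (2.86%) against 13.0%. These shares use the window listed first for each gene, were not tested and do not take base composition into account.

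In Mstn-null muscle 12 of the 34 genes were called, 4 higher and 8 lower, where over all genes 25.4% were called higher and 16.4% lower. The 4 that rose were Pfkfb3, Stbd1, Slc16a3 and Tbc1d4, and the 8 that fell were Pgk1, Ldhb, Fbp2, Ugp2, Gbe1, Ppp1r3c, Phkg1 and Slc16a1. After 1 dose of ActRIIB-Fc only Tbc1d1 was called, lower, against 0.542% higher and 0.572% lower over all genes. After 4 doses Stbd1 rose and Ldhb, Slc2a4 and Tbc1d1 fell, against 1.91% higher and 1.23% lower over all genes. The median change of the 34 genes was -0.05, -0.02 and -0.01 in the order Mstn-null, 1 dose and 4 doses, beside 0.09, 0.02 and 0.02 over all genes. At an unadjusted p under 0.05 the counts were 13, 7 and 10 of 34. The share of all genes under that unadjusted threshold is not given here, so these counts cannot be set against the shares above. The 3 comparisons share the same control arrays, so their values are given side by side and their likeness is not measured.

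**Figure D1:**
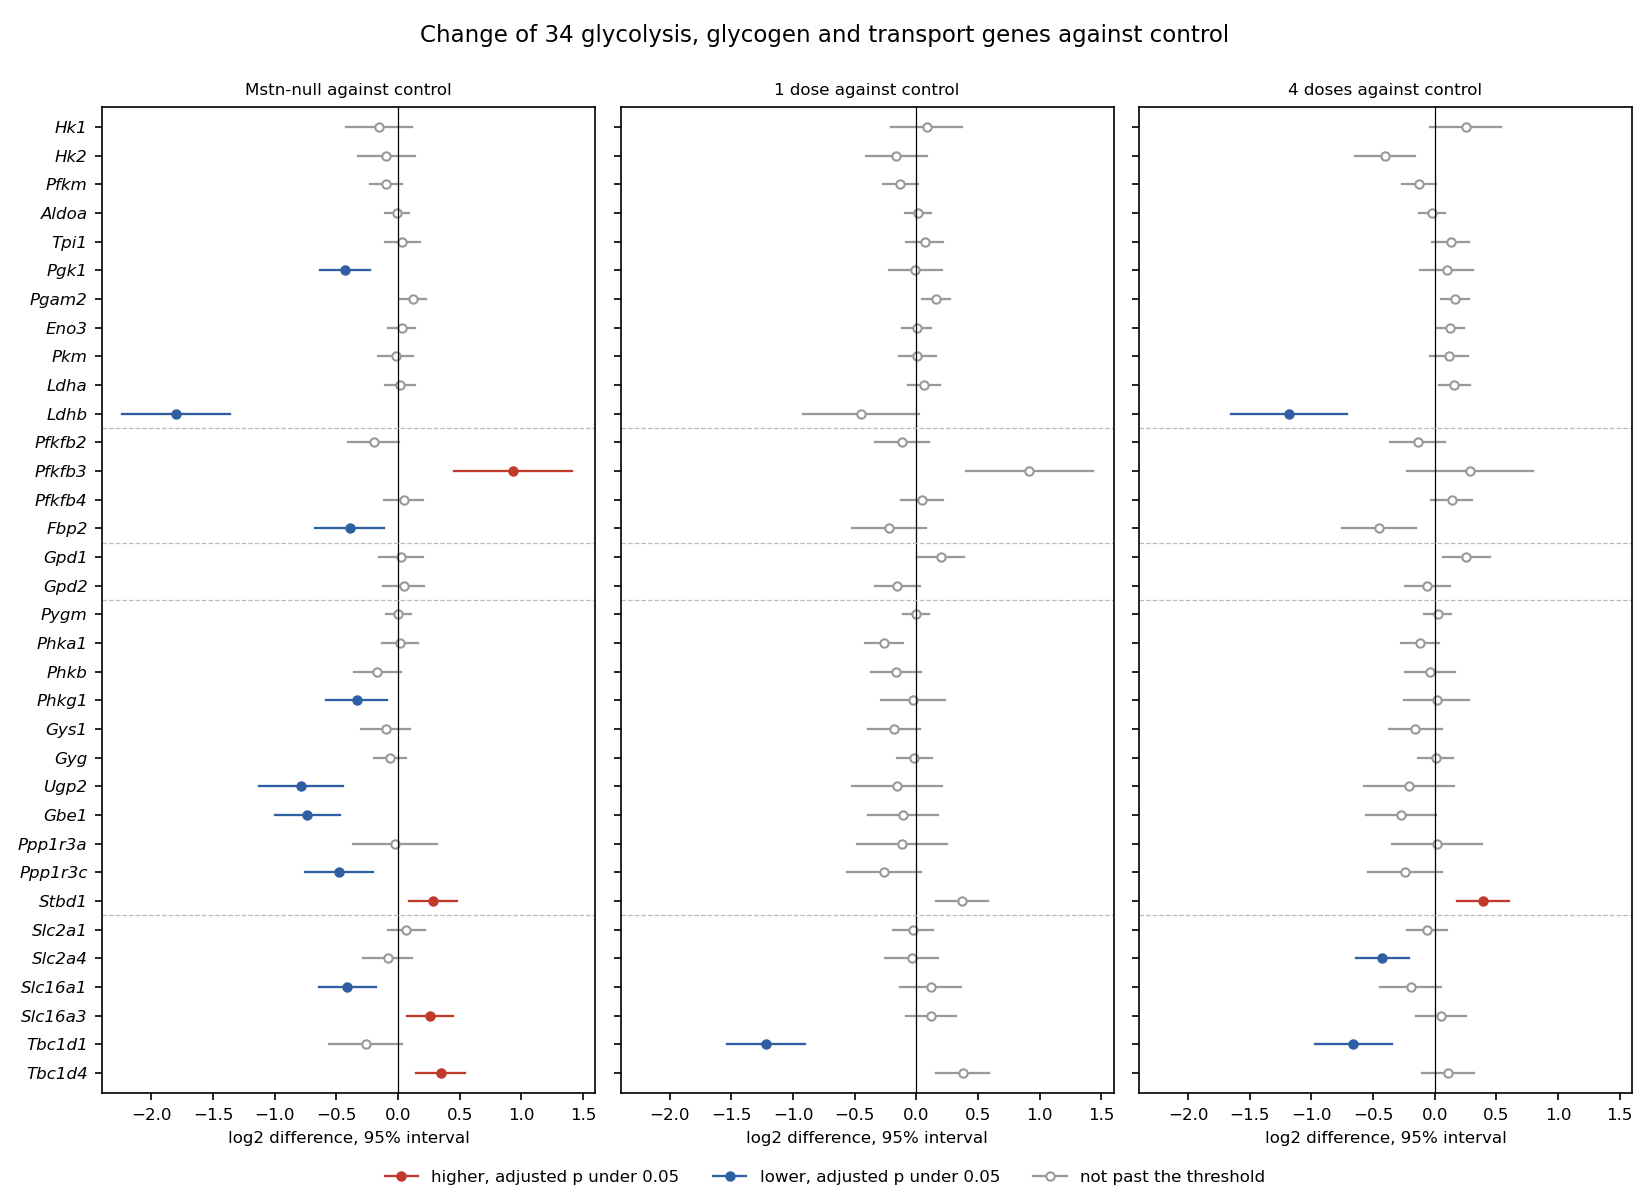
Change in log2 level against control for each of the 34 genes (x axis, log2 difference, with 95% confidence intervals) in Mstn-null muscle, after 1 dose and after 4 doses of ActRIIB-Fc, with genes (y axis) grouped by role between the dashed lines. Filled red points were called higher, filled blue points called lower, and open grey points were not called. Ldhb stands lowest in Mstn-null muscle at -1.80, Tbc1d1 lowest after 1 dose at -1.22, and most enzymes of glycolysis lie near 0.

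The balance of rises and falls in Mstn-null muscle depended on how arrays were scaled. With quantile normalization within each experiment 8 were higher and 4 lower, 7 of the 12 calls being shared with the main fit. That scaling lost the calls of Stbd1 (a rise) and of Fbp2, Phkg1, Ppp1r3c and Slc16a1 (falls), and all its new calls were rises. With arrays centred on their medians 1 was higher and 10 lower, with 9 shared. Without the 6 narrow arrays 10 were called, 4 higher and 6 lower. With the interquartile range as a covariate 2 of the 12 remained, Ldhb and Tbc1d4. Over all 19938 genes these settings called 5759, 6094, 5079 and 596 in the order given. The main fit called 5062 higher and 3275 lower, so the calls over all genes also fell, most with the covariate.

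Of the 11 glycolytic enzymes 2 fell in Mstn-null muscle, Pgk1 and Ldhb, 0 were called after 1 dose, and Ldhb fell after 4 doses. Over all genes 16.4%, 0.572% and 1.23% were called lower in that order, and 25.4%, 0.542% and 1.91% higher. The median change of the 11 enzymes was -0.02, 0.01 and 0.12 in the same order, beside 0.09, 0.02 and 0.02 over all genes. A group of 7 with small changes, put together after values were seen, comprised phosphofructokinase (Pfkm), aldolase (Aldoa), triosephosphate isomerase (Tpi1), the muscle forms of phosphoglycerate mutase (Pgam2) and enolase (Eno3), pyruvate kinase (Pkm) and the A subunit of lactate dehydrogenase (Ldha). The changes of these 7 ranged from -0.10 to 0.12 in Mstn-null muscle, from -0.13 to 0.16 after 1 dose and from -0.13 to 0.17 after 4 doses. The 95% intervals of all 7 lay within -0.23 to 0.23, -0.27 to 0.27 and -0.27 to 0.29 in the same order. A further Pkm row, not used here, differed in experiment 2. There it changed by 0.19, 0.15 and 0.24 in that order, against -0.01, -0.03 and 0.13 for the row used. In experiment 1 the values were -0.05, 0.03 and 0.02 against -0.03, 0.07 and 0.09. Pgam2, which missed the threshold in Mstn-null muscle (0.12, adjusted p = 0.0556), was called there at 0.27 after quantile normalization. Aldoa was likewise called after 4 doses at -0.14 with quantile normalization.

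The hexokinases trap glucose in the fibre by adding phosphate. For Hk2, the form of insulin-responsive muscle, the change was -0.09 in Mstn-null muscle, -0.16 after 1 dose (adjusted p = 0.624) and -0.40 after 4 doses, which missed the threshold (95% interval -0.65 to -0.16, adjusted p = 0.0579). All Hk2 arrays of 4 doses lay below all control arrays within each experiment, at 9.13 to 9.37 against 9.58 to 9.82 in experiment 1 and 10.25 to 10.57 against 10.68 to 10.94 in experiment 2. The fit restricted to the 4-dose and control classes called it (adjusted p = 0.000631). Hk1 could not be read with confidence. The row with its highest mean behaved like 16 rows also annotated to the ribosomal protein gene Rpl17, with Mstn-null changes of 0.49 and -0.44 in experiments 1 and 2 against 0.30 to 0.74 and -0.42 to -0.32 for the shared rows. The other Hk1 row, far dimmer at 5.34 and 6.39 in controls, changed by 0.16 in Mstn-null muscle (adjusted p = 0.0561).

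Pgk1 encodes phosphoglycerate kinase, which makes the earliest ATP of the pathway. In experiment 1 its log2 level was 10.32, 10.22 and 10.24 on control arrays, 10.20, 9.91 and 9.96 on Mstn-null arrays, 10.43, 10.26 and 10.33 after 1 dose and 10.39, 10.13 and 10.24 after 4 doses. In experiment 2 it was 12.82, 12.89, 12.93, 12.89 and 12.80 in controls, 11.86 to 12.74 with a median of 12.46 in Mstn-null muscle, 12.78, 12.99, 12.84, 12.83 and 12.55 after 1 dose, and 13.01, 13.02, 13.05, 13.02 and 13.03 after 4 doses. Every Mstn-null array was below every control array of its experiment, and in experiment 2 the 4-dose arrays were all above the controls. Pgk1 was 1.35-fold lower in Mstn-null muscle (change -0.43 ± 0.10 SE, adjusted p = 0.00117), and its change was -0.01 after 1 dose and 0.10 after 4 doses (adjusted p = 0.728). Among the 8 Mstn-null arrays of experiment 2 the lowest Pgk1 levels, 11.86, 11.92 and 11.96, were on replicates 2, 6 and 8, which were among the 4 narrow arrays. Without the 6 narrow arrays the Pgk1 change was -0.23 (adjusted p = 0.0138), and with the interquartile range as a covariate it was -0.27 (adjusted p = 0.229).

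Ldhb, the B subunit of lactate dehydrogenase, showed the largest Mstn-null change of the 34 genes. In experiment 1 its level was 8.17, 7.84 and 8.54 in controls, 5.61, 6.66 and 6.46 in Mstn-null muscle, 7.97, 7.82 and 7.39 after 1 dose and 6.91, 6.92 and 5.89 after 4 doses. In experiment 2 it was 9.15, 9.45, 9.48, 9.21 and 9.02 in controls, 6.41 to 8.52 with a median of 7.60 in Mstn-null muscle, 8.99, 8.49, 9.19, 8.82 and 8.60 after 1 dose, and 8.20, 8.62, 7.67, 8.66 and 8.54 after 4 doses. All Mstn-null and all 4-dose arrays lay below all controls of their experiment, while the 1-dose arrays overlapped with controls. Ldhb fell 3.48-fold in Mstn-null muscle (change -1.80 ± 0.22 SE, adjusted p = 4.24e-07) and 2.27-fold after 4 doses (-1.18 ± 0.23 SE, adjusted p = 0.00148). After 1 dose the change was -0.45 ± 0.23 SE (adjusted p = 0.439). It was the only one of the 12 Mstn-null calls that was kept on leaving out each array and under all 12 other alternatives, where that without the narrow arrays gave -1.44 and that with the interquartile range as a covariate -1.08 (adjusted p = 0.00246). Both Ldhb rows of the table changed alike, by -1.93 and -1.94 in experiment 1 and -1.77 and -1.71 in experiment 2 for Mstn-null against control.

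The Ldhb levels moved beside those of slow fibre genes. In experiment 2 the mean log2 level over the 13 slow fibre genes was 10.07 to 10.70 in controls, 7.07 to 9.49 in Mstn-null muscle, 8.26 to 10.67 after 1 dose and 8.18 to 9.81 after 4 doses. In experiment 1 it was 7.73 to 9.20, 6.12 to 7.09, 6.88 to 8.71 and 6.55 to 7.63 in the same order. The class means thus stood in the same order on both measures in each experiment, controls highest, then 1 dose, 4 doses and Mstn-null muscle. The part of slow fibre content in the Ldhb result was not tested.

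**Figure D2:**
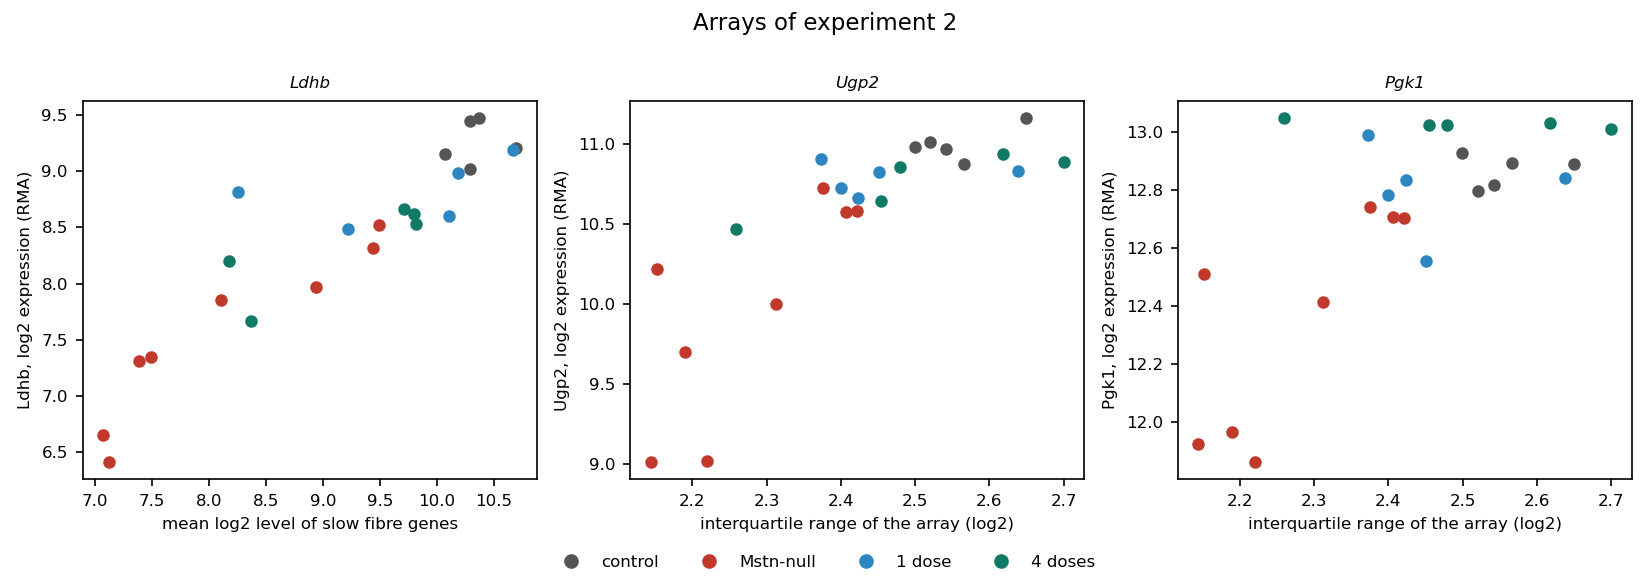
Arrays of experiment 2, 1 point per array, coloured by class (grey control, red Mstn-null, blue 1 dose, green 4 doses). One panel sets the log2 level of Ldhb against the mean log2 level of the 13 slow fibre genes, and the others set Ugp2 and Pgk1 against the interquartile range of the array in log2 units. The Mstn-null arrays reach the lowest values on both axes, with slow fibre means from 7.07 and Ugp2 levels down to 9.01.

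The regulators of glycolysis differed among themselves. Pfkfb3 makes fructose 2,6-bisphosphate, the strongest activator of phosphofructokinase; it, with the other genes given by array beyond the rule, was chosen after values were seen. In experiment 1 its levels were 8.19, 8.12 and 8.44 in controls, 9.67, 9.10 and 8.55 in Mstn-null muscle, 8.91, 9.47 and 9.65 after 1 dose and 8.25, 8.23 and 7.87 after 4 doses. In experiment 2 it was at 9.86, 9.69, 10.41, 9.40 and 8.83 in controls, 9.88 to 11.38 with a median of 10.65 in Mstn-null muscle, 10.69, 11.06, 10.35, 10.59 and 9.57 after 1 dose, and 11.02, 10.88, 10.03, 9.43 and 9.53 after 4 doses. The Mstn-null and 1-dose arrays lay above the controls in experiment 1 and overlapped with them in experiment 2, where Pfkfb3 varied widely within every class. Pfkfb3 was 1.91-fold higher in Mstn-null muscle (0.94 ± 0.24 SE, adjusted p = 0.00255). After 1 dose the change missed the threshold (0.92 ± 0.25 SE, 95% interval 0.40 to 1.43, adjusted p = 0.0689), and after 4 doses it was 0.29 (adjusted p = 0.655). Without the narrow arrays, none of them a control or 1-dose array, the 1-dose change was the same but its adjusted p passed (adjusted p = 0.0469). The Mstn-null value missed with the interquartile range as a covariate (1.05, adjusted p = 0.052).

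Fbp2, the muscle fructose bisphosphatase, which opposes phosphofructokinase, fell by 0.39 on the log2 scale in Mstn-null muscle (SE 0.14, adjusted p = 0.0225). Its Mstn-null levels lay below controls in experiment 1, at 7.27 to 7.71 against 7.81 to 8.17, and overlapped with them in experiment 2, at 8.63 to 10.01 against 9.62 to 10.28. Fbp2 was no longer called once control replicate 4 of experiment 2 was left out (-0.32, adjusted p = 0.0691) and without the narrow arrays (-0.23, adjusted p = 0.208). With the interquartile range as a covariate it was -0.12 (adjusted p = 0.769). After 1 dose Fbp2 changed by -0.22 (adjusted p = 0.583) and after 4 doses by -0.45 ± 0.15 SE, short of the threshold (adjusted p = 0.0929). The other bifunctional enzymes of the Pfkfb family, Pfkfb2 (-0.20 in Mstn-null muscle, adjusted p = 0.115) and Pfkfb4 (0.05), were not called in any comparison with controls.

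The glycerol phosphate shuttle moves electrons from cytosolic NADH to mitochondria. Its enzymes Gpd1 and Gpd2 changed by 0.02 and 0.05 in Mstn-null muscle, by 0.20 and -0.15 after 1 dose and by 0.26 and -0.06 after 4 doses, none of which was called. The largest of these, Gpd1 after 4 doses, had a 95% interval of 0.06 to 0.45 (adjusted p = 0.154).

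Among the 11 glycogen genes Mstn-null muscle had 4 that fell and 1 that rose, 0 were called after 1 dose, and 1 rose after 4 doses. Their median change was -0.10, -0.12 and -0.04 in that order, beside 0.09, 0.02 and 0.02 over all genes. Of all genes 25.4% were called higher and 16.4% lower in Mstn-null muscle. These shares were 0.542% and 0.572% after 1 dose, and 1.91% and 1.23% after 4 doses. The lowest changes were those of Ugp2 and Gbe1. Ugp2 makes UDP-glucose, the sugar donor for glycogen, and Gbe1 sets the branches of the polymer.

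In experiment 1 Ugp2 stood at 8.55, 8.43 and 8.72 in controls, 8.05, 8.38 and 8.47 in Mstn-null muscle, 8.47, 8.43 and 8.61 after 1 dose and 8.29, 8.62 and 8.30 after 4 doses. In experiment 2 Ugp2 stood at 10.97, 10.88, 10.98, 11.17 and 11.01 in controls, 9.01 to 10.72 with a median of 10.11 in Mstn-null muscle, 10.73, 10.91, 10.83, 10.67 and 10.83 after 1 dose, and 10.89, 10.64, 10.47, 10.86 and 10.94 after 4 doses. The Mstn-null arrays lay below the controls in experiment 2 and overlapped with them in experiment 1. Over both experiments Ugp2 was 1.73-fold lower in Mstn-null muscle (-0.79 ± 0.17 SE, adjusted p = 0.000566), with changes of -0.15 after 1 dose and -0.21 after 4 doses that were not called. The lowest 2 Ugp2 levels, 9.01 and 9.02, were on narrow arrays, and without the 6 narrow arrays the change was -0.42 (adjusted p = 0.00105). With the interquartile range as a covariate it was -0.35 (adjusted p = 0.325).

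Gbe1 fell as well. In experiment 1 its levels were 7.76, 7.26 and 7.93 in controls, 7.51, 7.42 and 7.13 in Mstn-null muscle, 7.87, 7.82 and 7.50 after 1 dose and 7.56, 7.71 and 7.06 after 4 doses. In experiment 2 they were 9.90, 9.95, 10.06, 10.36 and 10.08 in controls, 8.43 to 9.63 with a median of 9.11 in Mstn-null muscle, 10.00, 9.85, 10.17, 9.54 and 9.71 after 1 dose, and 9.70, 9.71, 9.47, 9.82 and 10.11 after 4 doses. The Mstn-null arrays overlapped with controls in experiment 1 and were all lower in experiment 2. Gbe1 was 1.67-fold lower in Mstn-null muscle (-0.74 ± 0.13 SE, adjusted p = 7.59e-05), and it changed by -0.11 after 1 dose and -0.27 after 4 doses (adjusted p = 0.369). Without the narrow arrays the Gbe1 change was -0.54 (adjusted p = 0.00084), and with the interquartile range as a covariate -0.34 (adjusted p = 0.157).

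Stbd1 is a glycogen-binding protein that tethers glycogen to membranes and has been linked to its breakdown in lysosomes. Its levels in experiment 1 were 5.06, 5.47 and 4.95 in controls, 4.94, 5.29 and 5.52 in Mstn-null muscle, 5.38, 5.62 and 5.34 after 1 dose and 5.27, 5.30 and 5.18 after 4 doses. In experiment 2 Stbd1 was at 5.96, 6.06, 5.84, 6.21 and 5.95 in controls, 5.90 to 6.68 with a median of 6.46 in Mstn-null muscle, 6.38, 6.54, 6.51, 6.40 and 6.30 after 1 dose, and 6.54, 6.56, 6.70, 6.55 and 6.55 after 4 doses. Both dosed classes were above all controls in experiment 2, and all classes overlapped with controls in experiment 1. Stbd1 rose 1.22-fold in Mstn-null muscle (0.29 ± 0.10 SE, adjusted p = 0.018) and 1.31-fold after 4 doses (0.39 ± 0.10 SE, adjusted p = 0.0243). After 1 dose the change was 0.37 ± 0.10 SE (adjusted p = 0.0708). Stbd1 was dim, since all its control levels in experiment 2 lay below the array medians of that experiment (6.34 to 6.54), and whether its probes stood above background was not examined.

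The Stbd1 calls were close to the threshold. The 4-dose call was lost without any one of control replicates 1, 3 and 5 or 4-dose replicate 3 of experiment 2, with adjusted p up to 0.0667, and it missed with quantile normalization (0.35, adjusted p = 0.0782) and after median centring of arrays (0.35, adjusted p = 0.0687). Under the same scalings the Mstn-null value was 0.19 (adjusted p = 0.156) and 0.19 (adjusted p = 0.133), and with the interquartile range as a covariate 0.40 (adjusted p = 0.0595). Without the narrow arrays, none of them a control or 1-dose array, the 1-dose Stbd1 change was the same but its adjusted p passed (adjusted p = 0.0201).

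The remaining glycogen calls, both in Mstn-null muscle, were falls of Ppp1r3c and Phkg1. Ppp1r3c targets a phosphatase to glycogen, where it favours synthesis, and it changed by -0.48 ± 0.14 SE (adjusted p = 0.00673). Its Mstn-null levels overlapped with controls, at 8.40 to 9.36 against 8.88 to 9.45 in experiment 1 and 10.87 to 11.67 against 11.49 to 12.07 in experiment 2. The Ppp1r3c value was -0.23 (adjusted p = 0.236) with quantile normalization and -0.42 (adjusted p = 0.199) with the interquartile range as a covariate. Phkg1, the catalytic subunit of muscle phosphorylase kinase, changed by -0.34 ± 0.12 SE (adjusted p = 0.0247). Its Mstn-null levels were 9.02 to 9.38 against 9.20 to 9.47 in experiment 1 and 10.30 to 11.76 against 11.59 to 11.73 in experiment 2, overlapping in both. The lowest Phkg1 levels were on narrow arrays, and without these the change was -0.11 (adjusted p = 0.275). Values with quantile normalization and with the interquartile range as a covariate were -0.10 (adjusted p = 0.498) and -0.08 (adjusted p = 0.838).

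The central enzymes of glycogen turnover were not called in any comparison with controls. The change of muscle glycogen phosphorylase (Pygm) was 0.00 in Mstn-null muscle with a 95% interval of -0.10 to 0.10, and 0.03 after 4 doses. For glycogen synthase (Gys1) it was -0.10, -0.18 and -0.16 in the order Mstn-null, 1 dose and 4 doses, and for the primer protein glycogenin (Gyg) -0.07, -0.02 and 0.01. The regulatory subunits of phosphorylase kinase changed by 0.02, -0.26 and -0.12 (Phka1) and by -0.17, -0.16 and -0.04 (Phkb), where Phka1 after 1 dose came nearest to the threshold (adjusted p = 0.0898). Ppp1r3a, the glycogen-targeting phosphatase subunit of muscle, changed by -0.03, -0.12 and 0.02.

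**Figure D3:**
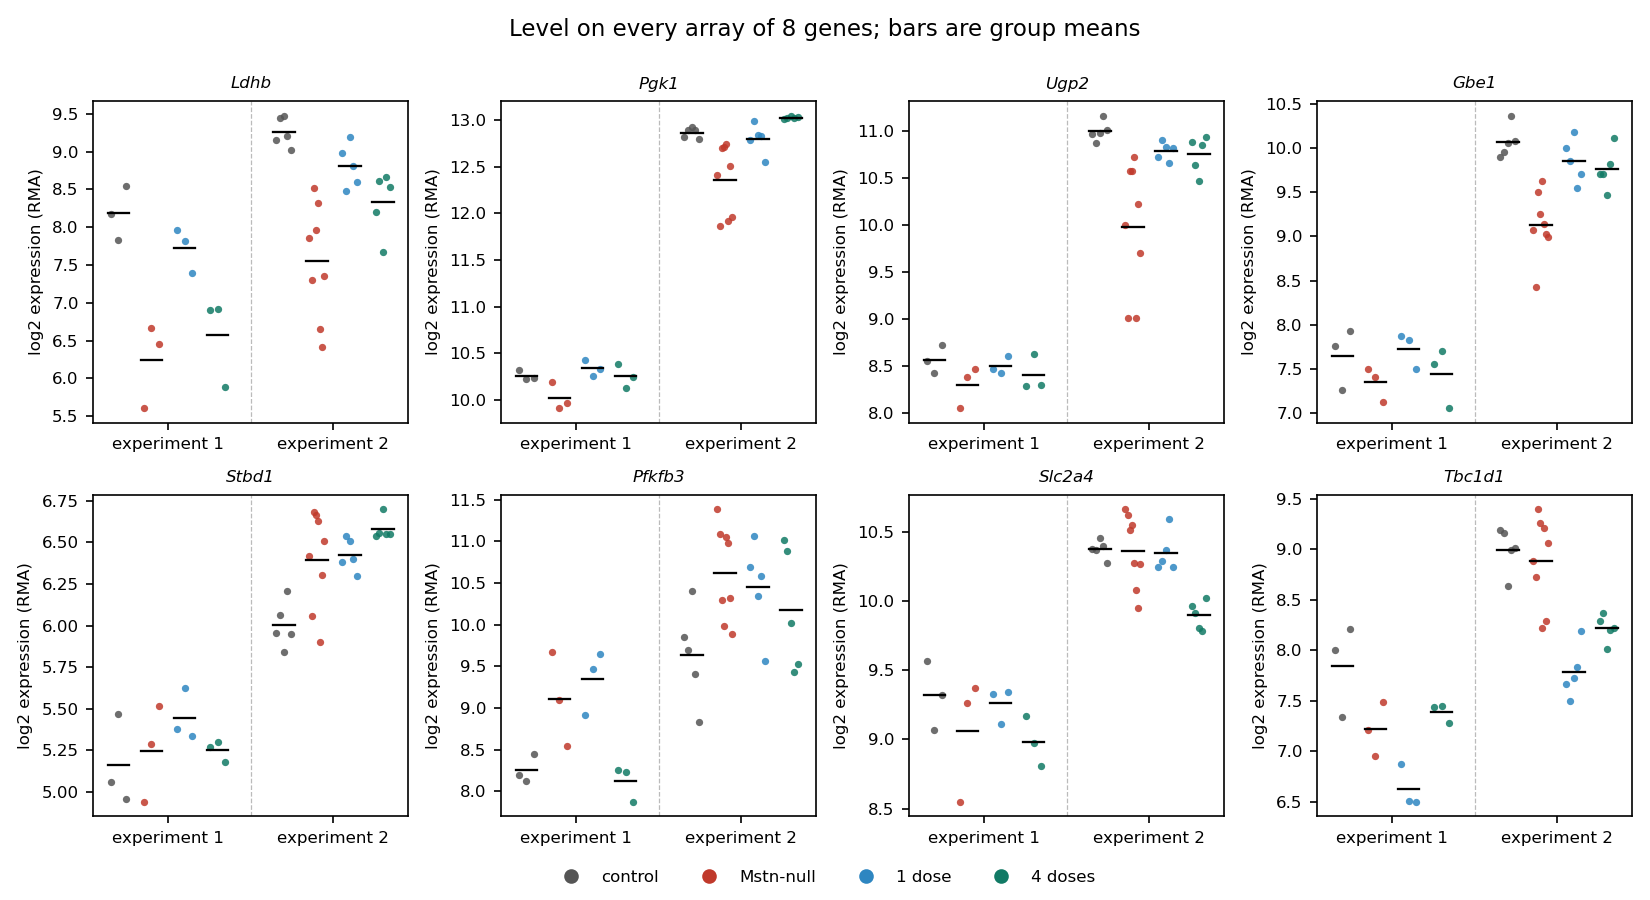
Log2 level (y axis) on each array for Ldhb, Pgk1, Ugp2, Gbe1, Stbd1, Pfkfb3, Slc2a4 and Tbc1d1, by class (grey control, red Mstn-null, blue 1 dose, green 4 doses) in experiment 1 and experiment 2, with group means as bars. Levels are to be compared only within an experiment. Tbc1d1 is lowest after 1 dose in both experiments, Slc2a4 is lowest after 4 doses in experiment 2, and Ldhb is low in Mstn-null and 4-dose muscle.

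Genes of glucose and lactate transport held the only call after 1 dose and 2 of the 4 calls after 4 doses. Of the 6 measured, 2 fell after 4 doses, 1 fell after 1 dose, and 2 rose and 1 fell in Mstn-null muscle. Over all genes 1.91% were called higher and 1.23% lower after 4 doses. The shares were 0.542% and 0.572% after 1 dose and 25.4% and 16.4% in Mstn-null muscle. The median change of the 6 was -0.13 after 4 doses, 0.04 after 1 dose and -0.01 in Mstn-null muscle, beside 0.02, 0.02 and 0.09 over all genes.

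Slc2a4 encodes GLUT4. In experiment 1 its levels were 9.57, 9.07 and 9.32 in controls, 8.55, 9.27 and 9.37 in Mstn-null muscle, 9.32, 9.11 and 9.35 after 1 dose and 9.17, 8.97 and 8.81 after 4 doses. In experiment 2 Slc2a4 was at 10.38, 10.37, 10.46, 10.40 and 10.28 in controls, 9.95 to 10.66 with a median of 10.40 in Mstn-null muscle, 10.24, 10.29, 10.37, 10.60 and 10.25 after 1 dose, and 9.96, 9.91, 9.81, 9.78 and 10.02 after 4 doses. The 4-dose arrays lay below all control and all 1-dose arrays in experiment 2 and overlapped with both in experiment 1. Slc2a4 fell 1.34-fold after 4 doses (-0.43 ± 0.11 SE, adjusted p = 0.0145), with changes of -0.04 after 1 dose and -0.08 in Mstn-null muscle (adjusted p = 0.503). With quantile normalization the 4-dose change of Slc2a4 was -0.38 (adjusted p = 0.0635). The widely expressed carrier GLUT1 (Slc2a1) changed by 0.07, -0.03 and -0.07 in the order Mstn-null, 1 dose and 4 doses and was not called.

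Tbc1d1 is a GTPase-activating protein that holds GLUT4 vesicles inside the fibre until phosphorylated by AMP kinase or Akt. In experiment 1 its levels were 8.00, 7.33 and 8.21 in controls, 7.21, 6.95 and 7.49 in Mstn-null muscle, 6.87, 6.50 and 6.50 after 1 dose and 7.44, 7.44 and 7.28 after 4 doses. In experiment 2 Tbc1d1 was at 9.19, 9.16, 8.64, 8.99 and 9.01 in controls, 8.22 to 9.40 with a median of 8.97 in Mstn-null muscle, 7.67, 7.49, 7.72, 7.84 and 8.19 after 1 dose, and 8.28, 8.37, 8.01, 8.20 and 8.22 after 4 doses. The 1-dose arrays lay below all controls in both experiments, the 4-dose arrays did so in experiment 2, and Mstn-null arrays overlapped with controls in both. Tbc1d1 fell 2.33-fold after 1 dose (-1.22 ± 0.16 SE, adjusted p = 6.98e-06) and 1.58-fold after 4 doses (-0.66 ± 0.16 SE, adjusted p = 0.00977). In Mstn-null muscle its change was -0.26 (95% interval -0.56 to 0.03, adjusted p = 0.138). In experiments 1 and 2 the Mstn-null change was -0.63 and -0.11, beside -0.46 and -0.78 after 4 doses. The 1-dose call was kept on leaving out each of the 35 arrays. Its value without the 6 narrow arrays, also -1.22, was fixed in advance, since none of them was a control or 1-dose array. A fit of the 12 arrays of experiment 1 alone did not call it.

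Tbc1d4 is the related protein through which insulin acts on GLUT4. It rose 1.27-fold in Mstn-null muscle (0.35 ± 0.10 SE, adjusted p = 0.00569), and it changed by 0.38 ± 0.11 SE after 1 dose (adjusted p = 0.0723) and 0.11 after 4 doses (adjusted p = 0.693). The Mstn-null levels were 7.28 to 7.44 against 6.42 to 7.21 in controls in experiment 1, without overlap, and 8.58 to 9.22 against 8.32 to 8.78 in experiment 2, with overlap. Without the narrow arrays, none of them a control or 1-dose array, the 1-dose change of Tbc1d4 was the same but its adjusted p passed (adjusted p = 0.0435). The Mstn-null value missed after median centring of arrays (0.26, adjusted p = 0.0612). Whether Tbc1d1 and Tbc1d4 differed in their response was not tested.

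Over both experiments together, the lactate carriers were called in opposite directions in Mstn-null muscle. In experiment 1 both changes were negative, at -0.68 for Slc16a1 and -0.07 for Slc16a3, and in experiment 2 they were -0.27 and 0.41. Slc16a1 (MCT1), typical of oxidative fibres and lactate uptake, fell 1.33-fold (-0.41 ± 0.11 SE, adjusted p = 0.00502), and Slc16a3 (MCT4), typical of glycolytic fibres and lactate release, rose 1.20-fold (0.26 ± 0.09 SE, adjusted p = 0.0261). In experiment 1 Slc16a1 was at 6.07 to 6.40 in Mstn-null muscle against 6.55 to 7.22 in controls, without overlap, and in experiment 2 at 7.98 to 8.94 against 8.79 to 9.00, with overlap. Slc16a3 was at 10.30 to 10.86 in Mstn-null muscle against 10.01 to 10.25 in controls in experiment 2, without overlap, but at 8.44 to 8.68 against 8.45 to 8.87 in experiment 1.

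These calls were sensitive to single settings. That of Slc16a3 was lost without control replicate 5 (0.22, adjusted p = 0.0658) or Mstn-null replicate 1 (0.22, adjusted p = 0.0501) of experiment 2 and without the narrow arrays (0.28, adjusted p = 0.0597), and median centring of arrays gave 0.17 (adjusted p = 0.173). The Slc16a1 value was -0.21 (adjusted p = 0.11) with quantile normalization, and with the interquartile range as a covariate it was -0.05 (adjusted p = 0.882), where Slc16a3 had 0.28 (adjusted p = 0.203). After dosing neither carrier was called, with Slc16a1 at 0.12 after 1 dose and -0.19 after 4 doses and Slc16a3 at 0.12 and 0.05.

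Set against Mstn-null muscle, the dosed classes differed in 7 genes after 1 dose and 10 after 4 doses. Over all genes 10.9% were called higher and 5.9% lower for 1 dose against Mstn-null, and 11.4% higher and 8.75% lower for 4 doses. These comparisons share the Mstn-null arrays with each other. After 1 dose 5 genes stood above Mstn-null muscle, namely Ldhb (1.35 ± 0.22 SE, adjusted p = 8.14e-05), Gbe1 (0.63), Ugp2 (0.63), Slc16a1 (0.53) and Pgk1 (0.42), and 2 stood below it, Tbc1d1 (-0.95 ± 0.15 SE, adjusted p = 5.41e-05) and Phka1 (-0.28, adjusted p = 0.00652). After 4 doses Pgk1 (0.53 ± 0.10 SE, adjusted p = 0.000552), Ldhb (0.62), Ugp2 (0.58), Gbe1 (0.47), Phkg1 (0.35) and the uncertain Hk1 row (0.41) were higher, and Slc2a4 (-0.34 ± 0.10 SE, adjusted p = 0.014), Pfkfb3 (-0.65, adjusted p = 0.0477), Tbc1d1 (-0.40, adjusted p = 0.0487) and Hk2 (-0.31, adjusted p = 0.0472) were lower. For 4 doses the calls of Hk2, Pfkfb3 and Tbc1d1 lay at the threshold and were lost without any one of 25, 23 and 24 of the 35 arrays, and those of Ldhb, Phkg1 and Hk1 without any one of 11, 8 and 4. Under the 12 other alternatives the calls of Ldhb, Phkg1 and Hk1 were lost in 5, 6 and 8. Without the narrow arrays 6 genes were called for 1 dose and 6 for 4 doses, 5 of the latter shared. Over all genes 1419 and 3726 were called without them.

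Between 4 doses and 1 dose none of the 34 genes was called by limma, where 0.321% of all genes were. Of the 34, 7 had an unadjusted p under 0.05, and the share of all genes at that unadjusted threshold is not given here. The smallest adjusted p-values belonged to Slc2a4 (-0.39, 95% interval -0.60 to -0.17, adjusted p = 0.114) and Tbc1d1 (0.56, interval 0.24 to 0.87, adjusted p = 0.131), which do not pass. For Ldhb the difference was -0.73 (interval -1.20 to -0.26, adjusted p = 0.249) and for Pfkfb3 -0.63 (interval -1.14 to -0.12, adjusted p = 0.455). Slc2a4 was called without Mstn-null replicate 1 of experiment 1, and Ldhb with the interquartile range as a covariate (-0.71, adjusted p = 0.0404). The dosing schemes may differ in more than the number of doses, since the sources used here do not give their timing.

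Changes within each experiment were taken from the fit of the 8 group means, which estimates the spread from all 35 arrays. In Mstn-null muscle 2 of the 34 genes were called in experiment 1, Ldhb (-1.94, adjusted p = 0.00393) and Slc16a1 (-0.68, adjusted p = 0.0408), where 3.48% of all genes were. A fit of the arrays of experiment 1 alone also called 2, but these were Ldhb and the uncertain Hk1 row, with Slc16a1 at adjusted p = 0.074. That fit called 477 of all genes. In experiment 2 there were 14, 5 higher and 9 lower, where 45.6% of all genes were called, and Ldhb (-1.71) was the 1 gene called in both. After 1 dose Tbc1d1 was called in both experiments, at -1.22 (adjusted p = 0.0317) and -1.21 (adjusted p = 0.000144), and no other gene of the set in either, against 0.0502% and 1.63% of all genes. The fit of experiment 1 alone gave Tbc1d1 an adjusted p of 0.0819 and did not call it. After 4 doses Ldhb was called in experiment 1 (-1.61, adjusted p = 0.0412), where 0.471% of all genes were, but not in fits of experiment 1 alone (adjusted p = 0.0516) or experiment 2 alone (adjusted p = 0.1). In experiment 2 Stbd1 (0.58, adjusted p = 0.00488), Slc2a4 (-0.48, adjusted p = 0.036) and Tbc1d1 (-0.78, adjusted p = 0.00946) were called, where 2.96% of all genes were, and Ldhb was at -0.92 (adjusted p = 0.0846).

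The genes called over both experiments were picked by a fit of the same arrays, so a like sign in each experiment was favoured in advance. It is no independent check. Their changes had the same sign in each experiment for 11 of 12 genes in Mstn-null muscle, 1 of 1 after 1 dose and 4 of 4 after 4 doses. The exception was Slc16a3, at -0.07 in experiment 1 and 0.41 in experiment 2. A test of the difference between experiments called only the uncertain Hk1 row for Mstn-null muscle (-0.93, adjusted p = 0.0269), where 1.68% of all genes were called. For 1 dose 0.0% and for 4 doses 0.00502% of all genes were called, and none of the 34, with limma. The next Mstn-null differences were those of Ppp1r3a (-1.02, from 0.67 to -0.36, adjusted p = 0.0728), Hk2 (0.58, from -0.50 to 0.08, adjusted p = 0.111), Slc16a3 (0.49, adjusted p = 0.127), Gbe1 (-0.64, adjusted p = 0.153) and Ugp2 (-0.76, adjusted p = 0.186).

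**Figure D4:**
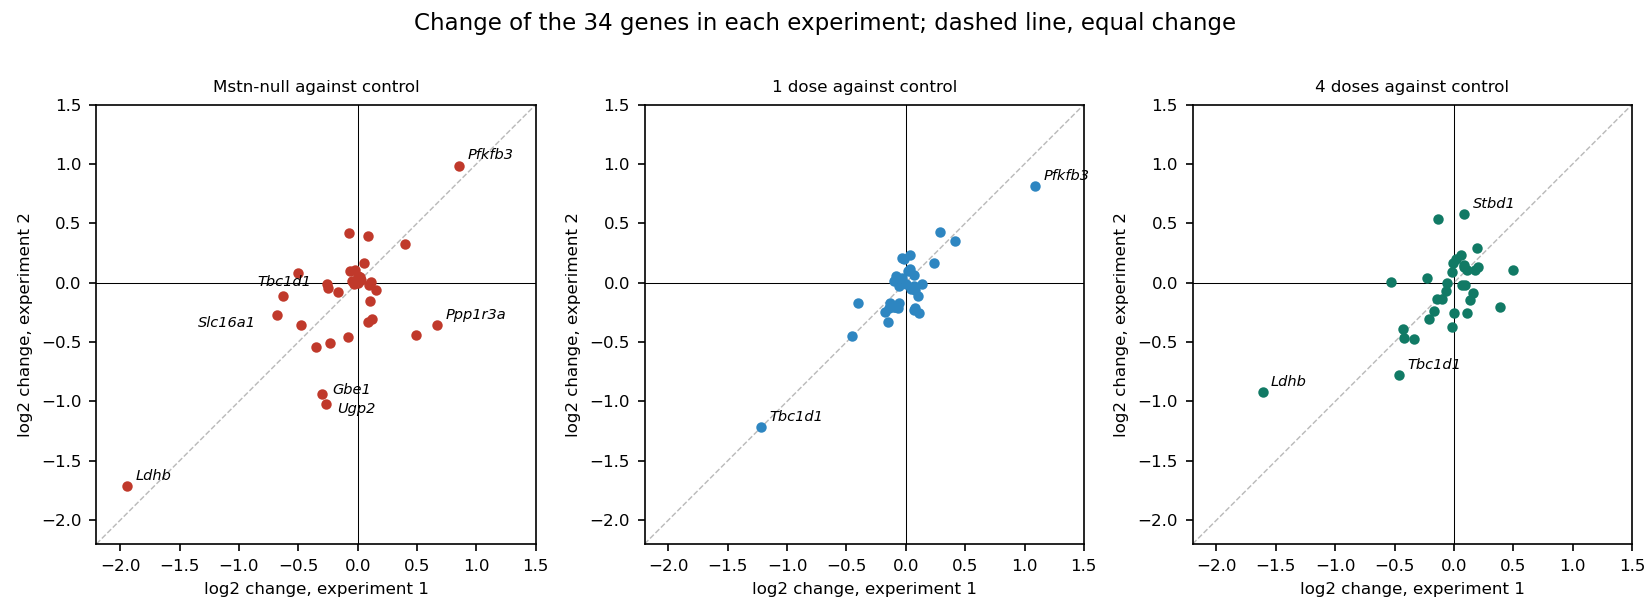
Change against control in experiment 1 (x axis, log2 difference) and in experiment 2 (y axis, log2 difference) for the 34 genes, 1 panel for each of Mstn-null muscle, 1 dose and 4 doses, with the dashed line marking equal changes. Ldhb in Mstn-null muscle (-1.94 and -1.71) and Tbc1d1 after 1 dose (-1.22 and -1.21) lie far from 0 in both experiments, while Ugp2 (-0.26 and -1.02) and Gbe1 (-0.30 and -0.94) lie lower in experiment 2.

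Other genes of the same routes were counted from lists that do not overlap with the 34. Over all genes 25.4% were called higher and 16.4% lower in Mstn-null muscle, with a median of 0.09. The shares were 0.542% and 0.572% after 1 dose, and 1.91% and 1.23% after 4 doses, so few or no calls per list stand near them. In Mstn-null muscle 6 of 22 further glycolysis genes rose and 6 fell (median 0.10), and those with the smallest p were the mitochondrial D-lactate dehydrogenase Ldhd (-0.56 ± 0.09 SE), the pyruvate dehydrogenase kinases Pdk1 (-0.45 ± 0.08 SE) and Pdk4 (-1.01 ± 0.18 SE), which restrain pyruvate oxidation, and the bisphosphoglycerate mutase Bpgm (-0.62 ± 0.13 SE). None of the 22 was called after 1 dose or 4 doses. Of 24 further glycogen genes 6 rose and 4 fell in Mstn-null muscle (median 0.06), among them the AMP kinase subunit Prkag1 (-0.72 ± 0.11 SE), the glycogen phosphatase laforin Epm2a (-0.62 ± 0.13 SE), the phosphoglucomutase relative Pgm5 (-0.44 ± 0.07 SE) and the phosphatase targeting subunit Ppp1r3e (0.47 ± 0.10 SE). After 4 doses the AMP kinase subunit Prkag2 rose (0.39 ± 0.07 SE, adjusted p = 0.00116) and Pgm5 fell (-0.35 ± 0.07 SE, adjusted p = 0.00213), and after 1 dose none of the 24 was called.

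Of 21 further genes of glucose carrier traffic and insulin signalling 6 rose and 2 fell in Mstn-null muscle (median 0.07), beside 25.4% and 16.4% over all genes (median 0.09). The GLUT4 sorting receptor Sort1 (0.59 ± 0.08 SE), the insulin receptor substrate Irs1 (0.95 ± 0.17 SE), the carrier chaperone basigin Bsg (0.37 ± 0.07 SE) and the kinase Akt2 (0.35 ± 0.09 SE) had the smallest p among those called. Irs1 also rose after 1 dose (0.79 ± 0.19 SE, adjusted p = 0.0209), as the only one of the 21, and none was called after 4 doses. The shares over all genes were 0.542% higher and 0.572% lower after 1 dose, and 1.91% and 1.23% after 4 doses. Among 12 transcription factors tied to glycolysis or glucose use, Klf15 fell in Mstn-null muscle (-0.26 ± 0.09 SE, adjusted p = 0.0184) and after 4 doses (-0.45 ± 0.09 SE, adjusted p = 0.00339), Eya1 rose in Mstn-null muscle (0.26 ± 0.09 SE, adjusted p = 0.0213), and none was called after 1 dose.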

How the data were processed

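RNA from snap-frozen quadriceps was extracted with TRIzol, and biotin-labelled whole-transcript targets were hybridised, per the labels' protocols. The deposited log2 values were made by the authors with RMA, and the submitters' processing notes also name limma 3.4.4 and R 2.11.1. Genome build and whether both experiments were normalized together are not given in the sources used here.

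Of 35556 rows 21789 carried exactly 1 symbol, giving 19938 genes by the highest-mean row. All 35 arrays were fitted with limma 3.58.1 in R 4.3.3 (class and experiment as terms, two-sided, no filter on dim genes), and the 8 group means were fitted for changes within experiments. The fits were tested on simulated data. The number of arrays limits the precision. The members and lists were chosen with earlier results of these data known. Values by array are given for genes called in 2 or more comparisons with controls and for the 4 called genes with the smallest p in each, and of other lists up to 4 called genes (3 for markers) are named. Deviations of same-numbered replicates had a median correlation of 0.00 over 48 pairs (from -0.60 to 0.41, with 18 over 0.1). For differently numbered replicates it was -0.01 over 201 pairs (from -0.43 to 0.53, with 57 over 0.1). The numbers were therefore not taken as pairs. The alternatives were other scalings, filters, fits and row choices, each experiment alone and each array left out.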

Additional observations from a re-analysis of the deposited data

Results flagged for a closer look

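On 3 occasions 1 array stood far from the others of its group, among 56 groups of 5 or 8 arrays examined for the called genes, where chance flags about 1 in 20 groups. Stbd1 was at 6.70 on 4-dose replicate 3 of experiment 2, with the next array at 6.56. Slc16a1 was at 8.48 on the same array, with the next at 8.90, and this array was one of the 6 with a narrow range of values. Fbp2 was at 10.28 on control replicate 4 of experiment 2, with the next at 9.78, and the Mstn-null call of Fbp2 was lost without that array (-0.32, adjusted p = 0.0691).

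The change of the Hk1 row in Mstn-null muscle differed between the experiments by -0.93 (limma, adjusted p = 0.0269), from 0.49 in experiment 1 to -0.44 in experiment 2. The 16 rows shared with Rpl17 moved the same way, by 0.30 to 0.74 and by -0.42 to -0.32, and the dimmer Hk1 row changed by -0.08 and 0.28.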

How the results depend on the processing

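Counts are of the 34 genes called, against 12 for Mstn-null, 1 for 1 dose and 4 for 4 doses against control, 0 for 4 doses against 1 dose, and 7 (1 dose) and 10 (4 doses) against Mstn-null. With the interquartile range as a covariate they were 2, 3, 4, 1, 2 and 2 in that order. Over all 19938 genes that fit called 596, 298, 703, 135, 501 and 394. For Mstn-null against control the main fit called 5062 higher and 3275 lower of all genes. For 1 dose it called 108 and 114, and for 4 doses 380 and 246. It called 64 for 4 doses against 1 dose. Against Mstn-null it called 2178 and 1176 for 1 dose, and 2275 and 1744 for 4 doses. Of the 34 genes, experiment 1 alone gave 2 for Mstn-null, 0 for each dosed class against control, and 1 and 0 against Mstn-null. There 477, 5, 53, 400 and 3 of all genes were called in that order. Array weights gave 6 of the 34 for 1 dose, 8 for 4 doses and 2 between them, beside 1743, 1543 and 437 of all genes. Fits of the compared classes only gave 4, 7 and 2, with 2 for 4 doses against Mstn-null. They called 494, 964, 82 and 1707 of all genes in that order. Quantile normalization and centring each gave 2 for 1 dose, beside 194 and 204 of all genes. Without the narrow arrays, an alternative chosen after seeing the data, there were 4 for 1 dose and 6 for 4 doses against Mstn-null. Over all genes 448 and 3726 were called without the narrow arrays. None of these arrays was a control or 1-dose array, so for 1 dose against control only the estimated spread and the adjustment differed. The fit with replicate number as a block gave 10, 2, 5, 0, 5 and 3, though the numbers were not taken as pairs. It called 4982, 231, 654, 59, 1244 and 1212 of all genes. Leaving out 1 array gave 11 to 14, 1 to 3, 3 to 5, 0 to 1, 7 to 8 and 4 to 11. The count for 1 dose reached 2 or 3 without any of 8 arrays, and that for 4 doses against Mstn-null fell to 4 to 6 without any of 8.

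Reversed signs were found for Slc16a3 in Mstn-null muscle in experiment 1 alone (-0.0738, adjusted p = 0.826), and for 4 doses against Mstn-null for Hk2 (0.0763) and Tbc1d1 (0.17) in experiment 1 alone and for Hk1 with its other row (-0.0388, adjusted p = 0.692), also chosen after seeing the data. The cause of these changes was not tested. Leaving out dim genes, averaging rows of a gene and using experiment 2 alone kept every count within 1.5 times. Signal over background was not analysed here.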
